A study of Mus musculus with 15 samples.

Results

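The interferon response genes were taken as the protein-coding genes whose symbols are Irf, Stat, Ifit, Ifitm, Oas, Oasl or Gbp followed directly by a digit, together with Isg15, Isg20, Mx1, Rsad2, Ifih1 and Ddx58. The rule gave 59 of the 21755 protein-coding genes of the GENCODE M21 annotation on mm10. Of these, 21 were factors and sensors (7 STAT factors, 9 IRF factors, 3 IRF2-binding proteins and 2 RNA sensors) and 38 were effectors (6 Ifit, 7 Ifitm, 11 Oas, 10 Gbp and 4 single genes). Mx2, which the rule also names, is annotated as a polymorphic pseudogene in this release and was not counted. Irf2bp1, Irf2bp2 and Irf2bpl fall under the Irf symbol rule by name, but encode partners of IRF2 rather than IRF factors, and are described apart.

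H3K4me3, trimethylation of lysine 4 of histone H3, was profiled in the livers of 15 C57BL/6 (C57BL/6J in the study's methods) female mice by PAT-ChIP-seq, a form of chromatin immunoprecipitation for tissue that was fixed in formalin and embedded in paraffin. Each of 5 diets was given to 3 mice, with 1 library per mouse, named by diet and replicate (SD_1). SD was the standard diet ad libitum, CR a caloric restriction on the standard feed, and HF a high-fat diet ad libitum. YD and RD were the standard feed with its maize replaced by yellow corn or by purple corn rich in anthocyanins, both ad libitum. The YD and RD mice are called corn-fed here, although the standard feed of the SD and CR mice also held maize. The mice came from 6 litters, which the labels do not assign to mice, and whole liver was used, so that a lower share of a cell type and a lower mark per cell cannot be told apart. The series describes 10 months of feeding from the age of 3 months, whereas 12 months is the age in the sample labels.

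Interferons are cytokines that warn cells of infection. Type I interferons bind IFNAR1 and IFNAR2 and type II interferon binds IFNGR1 and IFNGR2, after which Janus kinases phosphorylate STAT factors. STAT2 and IRF9 are subunits of the ISGF3 complex, which binds the interferon-stimulated response element (ISRE) in the promoters of effector genes, and STAT dimers bind the gamma-activated sequence (GAS). H3K4me3 marks the nucleosomes around the start sites of active genes and of many CG-rich promoters whether or not they are strongly transcribed.

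The promoter sequences show the elements on which the response converges. RefSeq promoter windows on GRCm38.p6, the assembly behind mm10, were found for 48 of the 59 genes and run from 250 bases before the start to 50 bases after it. The ISRE was searched as GAAA, any 2 bases and GAAA on either strand (TTTC, any 2 bases and TTTC on the opposite one), with overlapping matches allowed, and the GAS as TTC, any 3 bases and GAA, whose matches can overlap those of the ISRE. ISRE letters stood in a window of 23 of the 48 genes (47.9%) and of 665 of 16450 protein-coding genes (4.04%), and GAS letters in 11 of the 48 (22.9%) and in 9.06% of all. Among the 29 effectors with a window, 18 held ISRE letters (62.1%), against 5 of the 19 factors and sensors (26.3%). The 250 bases before the start are printed 5′ to 3′ on the strand of the gene, in lower case, with ISRE letters in capitals. Isg15, Rsad2, Ifit1 and Oas1a are shown as effectors with an island in few or no libraries, Gbp7 and Ifitm2 as effectors with an island in most or all, and Stat2 and Irf1 as factors with an island in 15 and 14 libraries.
Isg15, chr4:156200819-156201068, minus strand: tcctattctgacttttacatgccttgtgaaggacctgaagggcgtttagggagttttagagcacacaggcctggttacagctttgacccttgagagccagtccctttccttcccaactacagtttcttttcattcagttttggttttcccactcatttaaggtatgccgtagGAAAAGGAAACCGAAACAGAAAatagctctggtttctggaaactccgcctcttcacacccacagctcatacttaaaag
Rsad2, chr12:26456453-26456702, minus strand: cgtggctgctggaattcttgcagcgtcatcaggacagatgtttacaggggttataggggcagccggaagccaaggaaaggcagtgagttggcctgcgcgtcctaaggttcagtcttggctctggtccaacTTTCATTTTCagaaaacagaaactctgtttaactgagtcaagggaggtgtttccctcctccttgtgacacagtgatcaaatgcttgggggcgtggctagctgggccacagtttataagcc
Ifit1, chr19:34640639-34640888, plus strand: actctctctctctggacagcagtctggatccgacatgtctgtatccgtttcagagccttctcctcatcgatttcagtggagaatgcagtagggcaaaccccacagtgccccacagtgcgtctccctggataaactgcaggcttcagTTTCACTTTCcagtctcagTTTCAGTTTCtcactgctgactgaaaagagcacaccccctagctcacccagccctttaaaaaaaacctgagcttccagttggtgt
Oas1a, chr5:120907526-120907775, minus strand: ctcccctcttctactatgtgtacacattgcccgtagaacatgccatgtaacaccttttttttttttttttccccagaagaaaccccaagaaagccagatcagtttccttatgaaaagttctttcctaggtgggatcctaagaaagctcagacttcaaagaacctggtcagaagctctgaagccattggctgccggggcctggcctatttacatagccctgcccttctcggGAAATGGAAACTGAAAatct
Gbp7, chr3:142530086-142530335, plus strand: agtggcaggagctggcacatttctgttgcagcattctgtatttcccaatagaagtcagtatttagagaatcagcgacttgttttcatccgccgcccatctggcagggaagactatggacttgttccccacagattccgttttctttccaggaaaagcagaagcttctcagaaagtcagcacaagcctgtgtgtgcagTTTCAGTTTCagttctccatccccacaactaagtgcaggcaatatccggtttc
Ifitm2, chr7:140955962-140956211, minus strand: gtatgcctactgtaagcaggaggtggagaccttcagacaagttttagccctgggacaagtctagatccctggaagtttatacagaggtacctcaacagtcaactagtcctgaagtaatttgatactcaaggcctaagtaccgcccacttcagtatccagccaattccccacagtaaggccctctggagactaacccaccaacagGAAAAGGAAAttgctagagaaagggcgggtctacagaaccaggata
Stat2, chr10:128270248-128270497, plus strand: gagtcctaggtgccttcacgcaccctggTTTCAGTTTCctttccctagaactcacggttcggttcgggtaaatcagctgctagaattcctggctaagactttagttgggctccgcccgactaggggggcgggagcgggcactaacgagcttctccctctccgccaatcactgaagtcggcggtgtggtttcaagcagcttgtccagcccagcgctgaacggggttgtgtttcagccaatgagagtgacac
Irf1, chr11:53769764-53770013, plus strand: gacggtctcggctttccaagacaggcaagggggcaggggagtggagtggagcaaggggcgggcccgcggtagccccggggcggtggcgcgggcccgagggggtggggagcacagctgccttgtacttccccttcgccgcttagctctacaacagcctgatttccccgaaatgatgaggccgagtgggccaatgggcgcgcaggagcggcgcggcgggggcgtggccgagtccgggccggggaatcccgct
The ISRE letters nearest to the start began 66 bases before it in Isg15, 120 in Rsad2, 85 in Ifit1 and 14 in Oas1a. In Gbp7 they began 53 bases before the start, in Ifitm2 46 and in Stat2 222. The printed Irf1 window held no ISRE letters. A match to these letters is a description of the sequence and not a measurement of binding.

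The SICER2 island is the unit of the data: a stretch of 200-bp windows enriched in reads, joined over gaps of up to 400 bp, with a score. A gene was called marked when an island lay within 1 kb of any of its start sites (TSSs), and the width of its highest-scoring such island was its measure, with 0 bp where there was none. The 15 lists held 7825 to 33752 islands, and 5589269 to 15449854 reads lay behind them as recovered from the score steps. These reads numbered 1.11e+07 ± 3.83e+06 in YD, 1.08e+07 ± 2.71e+06 in RD and 1.05e+07 ± 9.40e+05 in HF. In SD they numbered 8.93e+06 ± 2.15e+06 and in CR 8.08e+06 ± 2.24e+06 (mean ± standard deviation, n = 3 each). Of all protein-coding genes, 17.5% (YD_3) to 54.6% (HF_1) were marked per library. The share was 22.8 ± 4.69% in the YD mice and 31.2 ± 3.46% in the RD mice, against 39.6 ± 5.98% in SD, 43.4 ± 6.92% in CR and 51.2 ± 3.53% in HF (mean ± standard deviation, n = 3 each). Of 14 hepatocyte marker genes, 11 to 14 were marked in 12 of the libraries, 10 in CR_1 and in RD_3 and 6 in YD_3. Of the markers of other cells, 0 of 8 neutrophil genes were marked in any library and 0 to 3 of 16 lymphocyte genes. HF_1 stood apart with 8 of 12 Kupffer cell and macrophage genes and 9 of 10 endothelial genes, where the other libraries had 0 to 2 and 0 to 6.

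The promoters of the factors and sensors were marked in most livers, whereas those of the effectors were mostly unmarked. Among the 21 factors and sensors, 20, 19 and 19 were marked in the HF mice, 18, 17 and 14 in SD, 17, 15 and 17 in CR, 12, 14 and 14 in RD and 13, 12 and 6 in YD. Among the 38 effectors, 19, 9 and 15 were marked in HF, 10, 7 and 6 in SD, 16, 6 and 7 in CR, 4, 10 and 4 in RD and 3, 5 and 3 in YD. The share of factors and sensors was the larger in 15 of 15 libraries. It lay above the share of all protein-coding genes in each of them, while the share of effectors lay below it in 14 of the 15, the exception being CR_1 with 42.1% of effectors and 35.5% of all genes. Over all 59 genes, the HF mice had 33.7 ± 5.51 marked genes, the CR mice 26 ± 6.24, the SD mice 24 ± 4, the RD mice 19.3 ± 4.16 and the YD mice 14 ± 4.36 (mean ± standard deviation, n = 3 each), in the same order of diets as the share of all protein-coding genes.

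**Figure D1:**
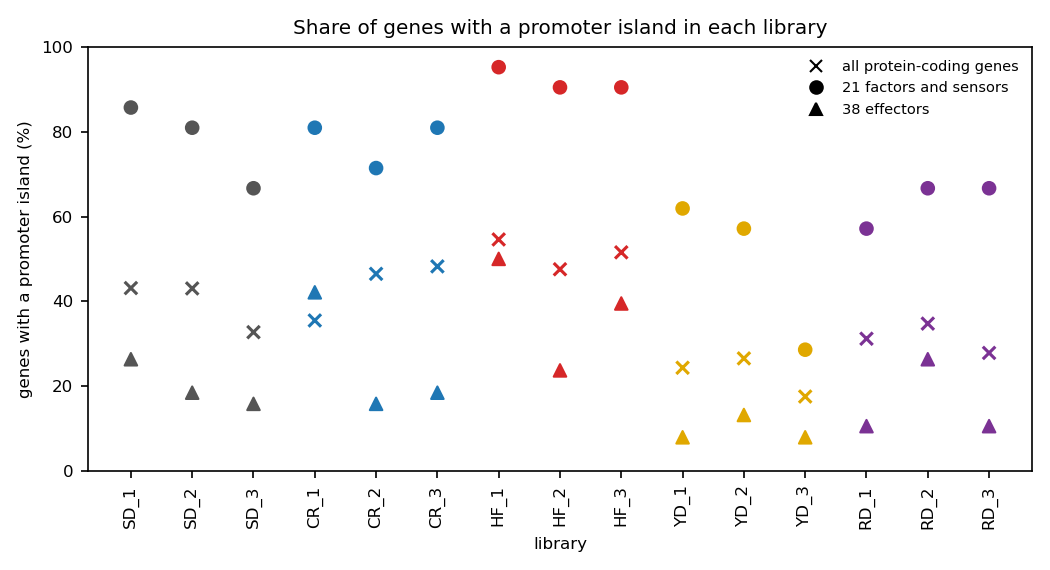
Share of genes with a promoter island in each of the 15 libraries, in percent, for all protein-coding genes (crosses), the 21 factors and sensors (circles) and the 38 effectors (triangles), coloured by diet. Circles lie above the crosses in every library, from 28.6% in YD_3 to 95.2% in HF_1, and triangles lie below the crosses in all libraries but CR_1.

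Of the 59 genes, 9 were marked in every library (15.3%), 33 in some and 17 in none (28.8%). Over all protein-coding genes 9.46% were marked in every library and 40.0% in none. Marked in all 15 libraries were Stat2, Stat3 and Stat6, the factors Irf2 and Irf3, Irf2bpl, the membrane antiviral genes Ifitm2 and Ifitm3, and Oasl1, a homologue of the oligoadenylate synthetases. Marked in none were Stat4, which is known from lymphocytes, and 16 effectors: Mx1, Rsad2, Ifit3, Ifit1bl1, Ifitm6, Ifitm7, Ifitm10, Gbp2b, Gbp6, Gbp10, Oas3 and the Oas1 copies Oas1d, Oas1e, Oas1f, Oas1g and Oas1h. Isg15, Ifit2, Ifitm1 and Irf4 had an island in HF_1 alone, and without that library 21 of the 59 genes were marked in none. HF_1 was the library with the most marked protein-coding genes, and also with the most marked macrophage and endothelial genes. Without YD_3, the library with the fewest marked genes, 13 were marked in every library. Where an island was present, its median width per library was 1000 to 2800 bp for these genes and 1200 to 2600 bp for all protein-coding genes.

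**Figure D2:**
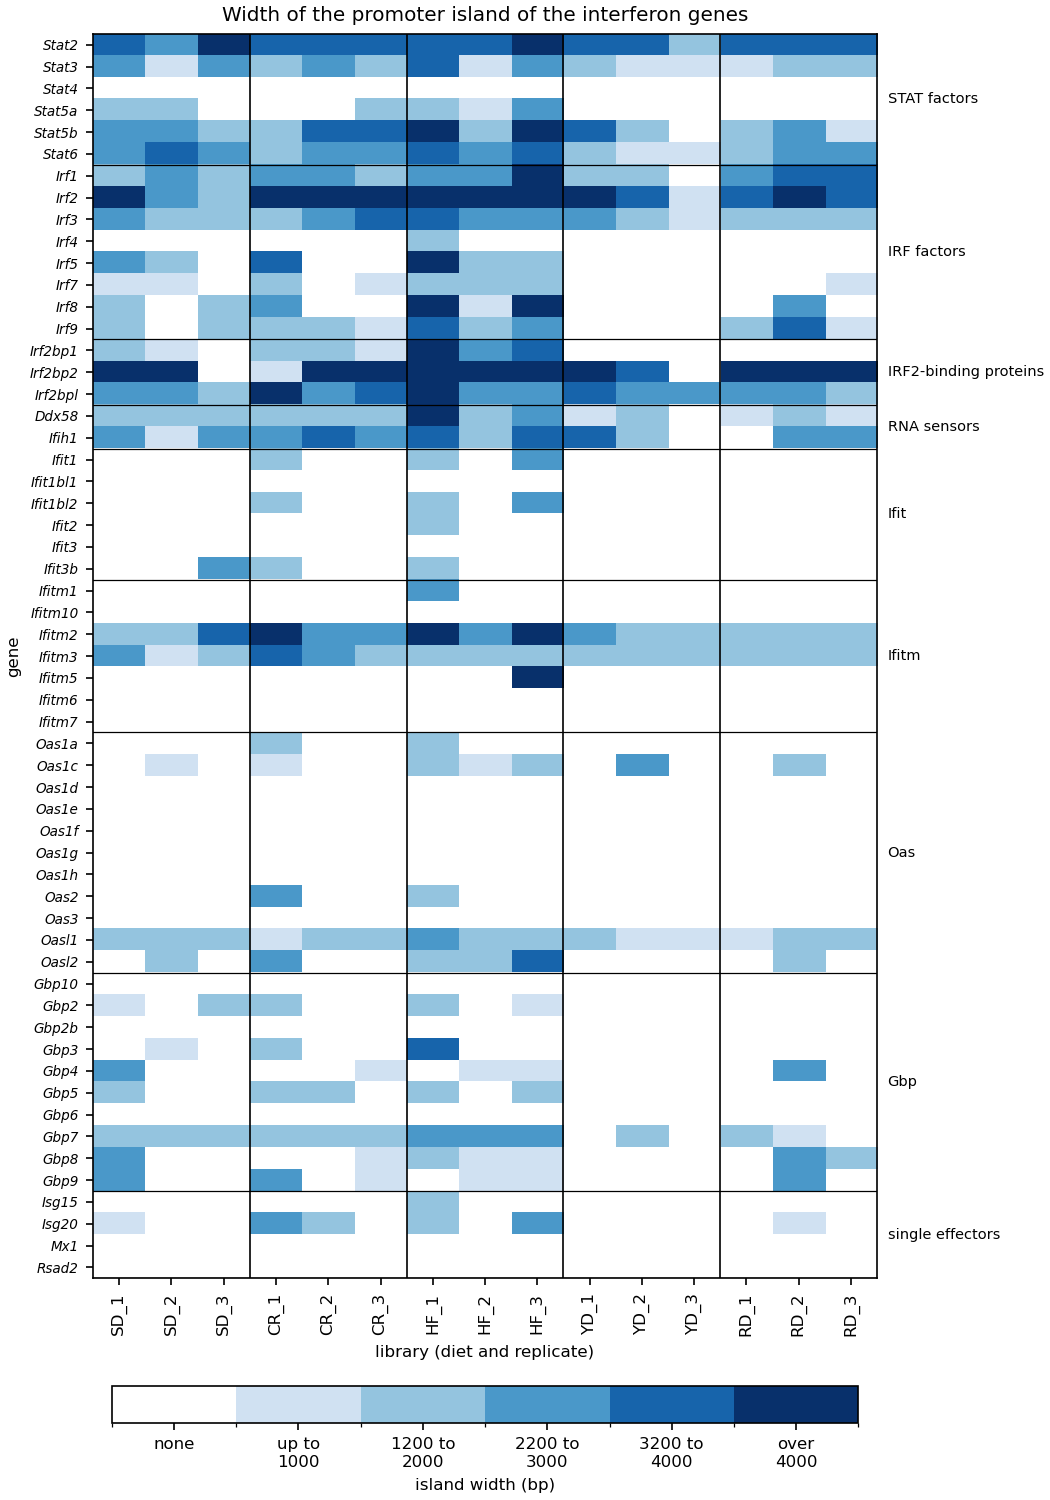
Width in bp of the promoter island of 57 of the 59 genes (rows, grouped by role) in each of the 15 libraries (columns, grouped by diet), with white where no island lay within 1 kb of a start site. Stat2, Irf2 and Irf2bpl are filled across all diets, most Oas and Ifit rows are white, and YD_3 is the emptiest column.

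The CG content of the windows followed the role of the gene. The median window held 19 CG pairs among the 19 factors and sensors and 4 among the 29 effectors, against 15 in all protein-coding genes with a window. Genes marked in every library had a median of 15 CG pairs, those marked in some 8, and those marked in none 2.5, and over all protein-coding genes the medians were 24, 21 and 4. Exceptions stood on both sides. Ifitm2 with 4 CG pairs, Ifitm3 with 5 and Oasl1 with 8 were marked in all 15 libraries, whereas Ifitm10 with 32 was marked in none and Irf5 with 35 in 6. ISRE letters were held by 4 of 9 genes with a window that were marked in every library and by 7 of 12 marked in none.

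**Figure D3:**
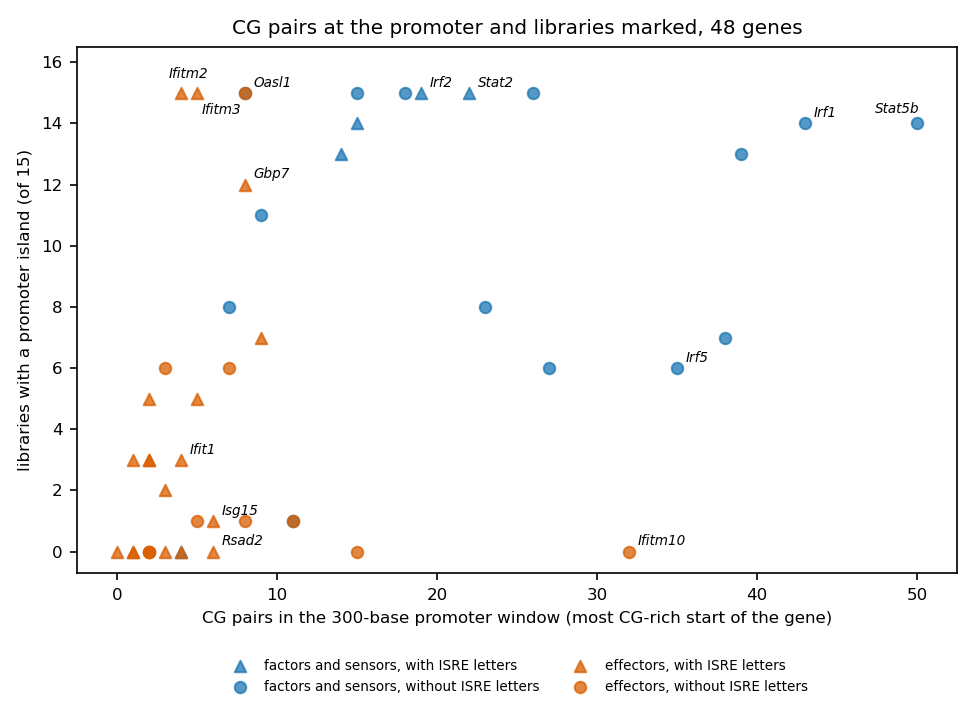
Number of CG pairs in the 300-base promoter window (horizontal axis, the start with most CG pairs where a gene has several) against the number of libraries with a promoter island (vertical axis), for the 48 genes with a window. Effectors (orange) gather at few CG pairs and few libraries, with Ifitm2, Ifitm3, Oasl1 and Gbp7 above them, and factors and sensors (blue) spread to 50 CG pairs at Stat5b.

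No ligand was marked: the 18 genes of type I, II and III interferons, among them Ifnb1 and Ifng, had no island in any of the 15 libraries. The receptor chain was. Ifnar2 and Jak2 were marked in 15 libraries, Ifnar1 and Jak1 in 14 and the interferon gamma receptor chains Ifngr2 and Ifngr1 in 11 and 10, while Ifnlr1, the receptor of the type III interferons, was marked in 2 HF libraries only.

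Stat2 and Irf9, which encode subunits of ISGF3, differed. Stat2 (chr10:128270559-128292849) had islands of 4000, 3600 and 4400 bp in HF, 3600, 3000 and 4200 in SD, 3800, 3800 and 3200 in CR, 3200, 3800 and 3200 in RD and 3800, 3400 and 1400 in YD. Its widths overlapped between all diets, with YD_3 the only library under 3000 bp, and the start of the neighbouring Apof lay at the same island. Irf9 (chr14:55603571-55610030), the DNA-binding partner, measured 1200, 0 and 1600 bp in SD, 1400, 1200 and 1000 in CR, 3800, 1600 and 2600 in HF, 0 in all 3 YD mice and 1400, 3200 and 1000 in RD. Irf9 was thus marked in 11 libraries, with the absences in SD_2 and the YD mice.

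The other STAT factors serve further cytokines. Stat6 (chr10:127642986-127660957), the factor of interleukin 4 and 13, measured 3800, 3000 and 3200 bp in HF, 2400, 3200 and 2600 in SD, 2000, 2200 and 2800 in CR, 1600, 2800 and 2200 in RD and 1600, 600 and 1000 in YD. Every YD value lay below every SD, CR and HF value, whereas RD overlapped SD and CR. Stat5a (chr11:100859351-100885169), which with Stat5b carries growth hormone and prolactin signals, measured 1400, 1400 and 0 bp in SD, 0, 0 and 1600 in CR, 1600, 400 and 2400 in HF and 0 in all 6 corn-fed mice. Stat5b was marked in 14 libraries, with 0 bp in YD_3, and Stat3, the factor of interleukin 6, had islands of 600 to 3200 bp in all 15.

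Among the IRF factors, those with broad expression were marked widely. Irf2 (chr8:46739732-46847458), an antagonist of IRF1 at shared sites, had the widest islands of the IRF factors, at 6800, 4400 and 5200 bp in HF, 5600, 2600 and 2000 in SD, 4600, 5400 and 4400 in CR, 3400, 6200 and 3600 in RD and 4600, 3800 and 600 in YD. Irf1 (chr11:53770014-53778374), an early target of interferon signalling, measured 2800, 2800 and 4600 bp in HF, 1800, 2400 and 2000 in SD, 2200, 2600 and 1800 in CR, 2200, 3600 and 3800 in RD and 2000, 2000 and 0 in YD. The diets overlapped at Irf2, and at Irf1 all HF values lay above all SD, CR and YD values and all RD values above all YD values. Irf3, the factor activated by viral nucleic acid, was marked in 15 libraries at 800 to 3200 bp, and its islands also lay at the start of Bcl2l12.

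The IRF factors known from immune cells were marked in fewer livers. Irf7 (chr7:141262706-141266481), which amplifies the type I response, measured 600, 800 and 0 bp in SD, 1600, 0 and 1000 in CR, 1600, 1400 and 1800 in HF, 0 in all YD mice and 0, 0 and 400 in RD. Irf5 (chr6:29526625-29541871), a factor of macrophages, measured 2200, 1200 and 0 bp in SD, 3400, 0 and 0 in CR, 4600, 1800 and 1800 in HF and 0 in all 6 corn-fed mice. Irf8 (chr8:120736358-120756694), a factor of myeloid cells, measured 6000, 800 and 5600 bp in HF, 1400, 0 and 1400 in SD, 2400, 0 and 0 in CR, 0, 3000 and 0 in RD and 0 in YD. HF was the only diet in which all 3 mice were marked at these 3 genes. The Kupffer cell and macrophage genes marked in the HF libraries numbered 8, 0 and 2 of 12, and the endothelial genes 9, 4 and 6 of 10, and their part in these values was not tested.

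The IRF2-binding proteins were split. Irf2bp1 (chr7:19004044-19006777), a corepressor, measured 1800, 800 and 0 bp in SD, 1200, 2000 and 600 in CR, 4800, 2200 and 3800 in HF and 0 in all 6 corn-fed mice. Its values in corn-fed and other mice met only at the 0 of SD_3. Irf2bp2 (chr8:126588296-126593986) had the widest islands of the 59 genes, at 8000, 7000 and 7800 bp in HF, 6800, 4800 and 0 in SD, 1000, 4800 and 5200 in CR, 4800, 5200 and 5000 in RD and 6200, 3400 and 0 in YD. Irf2bpl (chr12:86880701-86884798) was marked in every library, at 4400, 2600 and 3000 bp in HF, 3000, 3000 and 1200 in SD, 4400, 2800 and 3400 in CR, 3000, 2800 and 2000 in RD and 3600, 2800 and 2200 in YD, and its diets overlapped.

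The cytosolic RNA sensors were marked in nearly all livers. Ddx58 (chr4:40203773-40239828), which encodes RIG-I, measured 4200, 2000 and 2200 bp in HF, 1400, 1400 and 1600 in SD, 2000, 1600 and 1800 in CR, 1000, 1600 and 800 in RD and 800, 1400 and 0 in YD. Ifih1 (chr2:62595798-62646255), which encodes MDA5, measured 4000, 2000 and 3200 bp in HF, 2200, 1000 and 3000 in SD, 2400, 3200 and 2800 in CR, 0, 2200 and 2200 in RD and 3400, 1600 and 0 in YD. The third receptor of this kind, Dhx58, was marked in 4 libraries, 3 of them HF.

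**Figure D4:**
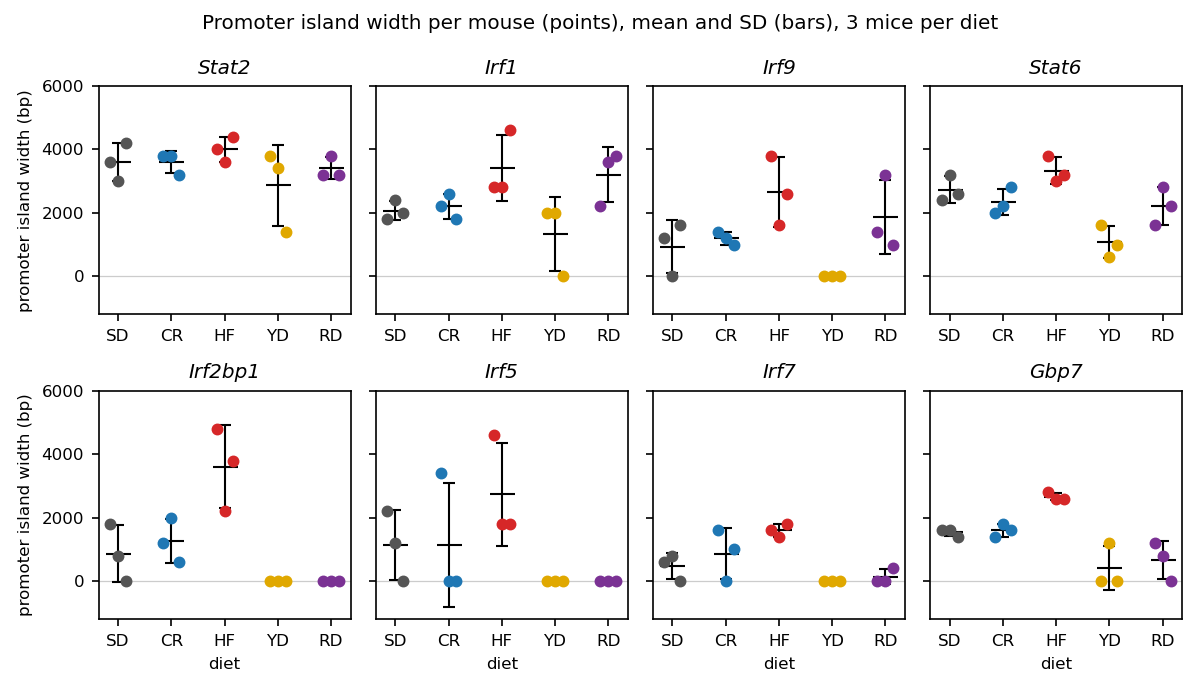
Promoter island width in bp (vertical axis) of 8 genes in each of the 5 diets, with a point per mouse and the mean and standard deviation of 3 mice as bars, and 0 bp for no island. Stat2 overlaps between all diets, the HF points of Irf1 lie above those of SD, CR and YD, Irf9 is at 0 bp in the 3 YD mice, Irf2bp1 and Irf5 are at 0 bp in the 6 corn-fed mice, and the HF points of Gbp7 lie above all others.

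Of the Gbp genes, which encode interferon-induced GTPases that attack the vacuoles of intracellular pathogens, 7 of 10 were marked in some libraries. Gbp7 (chr3:142530342-142550149) was the steadiest, at 2800, 2600 and 2600 bp in HF, 1600, 1600 and 1400 in SD, 1400, 1800 and 1600 in CR, 1200, 800 and 0 in RD and 0, 1200 and 0 in YD. All HF values lay above all others, and all corn values below those of the other diets. Gbp5 (chr3:142493978-142522344) measured 1400, 0 and 0 bp in SD, 1800, 1400 and 0 in CR, 2000, 0 and 1800 in HF and 0 in the 6 corn-fed mice. Gbp2 (chr3:142620602-142638008) measured 1000, 0 and 1600 bp in SD, 2000, 0 and 0 in CR, 1400, 0 and 800 in HF and 0 in the corn-fed mice. Gbp8 (chr5:105014150-105139540), whose islands were in part shared with Gbp4 and Gbp9, measured 1200, 800 and 1000 bp in HF, 2600, 0 and 0 in SD, 0, 0 and 800 in CR, 0, 3000 and 1200 in RD and 0 in YD.

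The classical antiviral effectors were seen in few livers. Ifit1 (chr19:34640871-34650009), which binds viral RNA that lacks host cap methylation, had an island in CR_1 (1200 bp), HF_1 (1800 bp) and HF_3 (2200 bp), the same one as its neighbour Ifit1bl2. Oas1a (chr5:120896256-120907521), an oligoadenylate synthetase, had an island of 1200 bp in CR_1 and in HF_1. Isg15 (chr4:156199424-156200818), a ubiquitin-like modifier, had 1600 bp in HF_1, and Mx1 and Rsad2 had none in any library. Oasl2 (chr5:114896936-114912234) measured 2000, 1400 and 3800 bp in HF, 0, 2000 and 0 in SD, 2200, 0 and 0 in CR, 0, 1400 and 0 in RD and 0 in YD. The exonuclease gene Isg20 was marked in 6 libraries and in no YD library.

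Ifitm2, Ifitm3 and Oasl1 were the 3 effectors marked in every liver. Ifitm2 islands were 1200 to 5200 bp wide and those of Ifitm3 600 to 3600 bp, and the HF_3 island of Ifitm2 (5200 bp) also reached Ifitm5. Oasl1 (chr5:114923240-114937915) had a narrow island of 400 to 2800 bp that ranked high for its width. Per window, its score lay between the 97.3 and 99.7 percentile of its list in the 12 libraries of SD, CR, YD and RD, and at the 81.8, 84.2 and 93.8 percentile in HF. In CR_1, YD_2, YD_3 and RD_1 the island ended before the first annotated start of the gene.

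For the comparison of diets, limma was fitted to log2(width + 200) over the 11200 protein-coding genes marked in at least 3 libraries, with Benjamini-Hochberg adjustment over all of them. Of the 59 genes, 35 passed this filter, 19 of them factors and sensors and 16 effectors. A fold on this scale understates the change of narrow islands. Between single diets none of the 35 passed an adjusted p of 0.05 by limma, in CR against SD (0.134% of all genes called), HF against SD (2.84%), YD against SD (5.97%), RD against SD (0.241%) or RD against YD (1.01%). At an unadjusted limma p under 0.05 there were 0, 5, 4, 1 and 3 of the 35 genes in these comparisons, where 5.33%, 13.4%, 25.1%, 10.6% and 10.9% of all genes tested were.

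The median difference of the 35 genes lay near that of all genes tested, except in RD against SD, where it was the smaller fall. On the log2 scale it was 0.26 in CR against SD, where the median of all genes was 0.19, and 0.76 in HF against SD, where that of all was 0.64. In YD against SD it was -1.11, beside -1.07 for all genes, with 33 of the 35 genes below 0. In RD against SD it was -0.15, beside -0.53 for all genes, and in RD against YD 0.46 beside 0.33. SD and YD are each used in more than 1 of these comparisons.

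Irf9 had the lowest p in RD against YD. Its width was 1867 ± 1172 bp in the RD mice and 0 bp in the 3 YD mice (standard deviation, n = 3), a difference of 3.22 (SE 0.79) on the log2 scale with a limma p of 0.000979 and an adjusted p of 0.0746. The same gene had -1.99 in YD against SD (limma adjusted p = 0.149). Stat6 differed by -1.28 (SE 0.38) in YD against SD, from 2733 ± 416 bp in SD to 1067 ± 503 bp in YD, with a limma adjusted p of 0.0585.

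YD and RD both held powder of a corn hybrid in place of the maize of the standard feed, which SD and CR mice ate with that maize. With corn therefore means on YD or RD, and not that the other mice ate no corn. Any pair of diets against the rest gives a split of the same size. YD and RD were chosen as the pair with earlier results of these data known. Their 6 mice were compared with the 9 on SD, CR or HF. Here 8 of the 35 genes had narrower islands with corn and none wider, a share of 22.9%, while 42.4% of all genes tested were narrower and 0.0179% wider. The median difference was -1.07 for these genes and -1.24 for all genes tested, and all 35 lay below 0. Relative to the median of all genes, 6 of the 8 fell by 0.55 (Gbp5) to 1.70 (Irf2bp1), while Ddx58 lay 0.07 and Stat6 0.43 above it. All p-values of this comparison are from limma, adjusted over the 11200 genes. Irf2bp1, Irf5, Stat5a and Gbp5, with no island in any corn-fed mouse, passed the filter of 3 libraries through the other diets alone, so that a lower width with corn was given by the filter. The same holds for Gbp2, Gbp3, Ifit1, Ifit1bl2 and Ifit3b among the genes not called. The place of all these genes below 0 is therefore no result, and how many of all genes tested lay below 0 was not counted.

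Markers of endothelial cells were marked less with corn, as were protein-coding genes as a whole. Of 10 endothelial genes, 0 were marked in each YD mouse and 1, 0 and 2 in the RD mice, against 6, 0 and 3 in SD, 2, 2 and 4 in CR and 9, 4 and 6 in HF. Tie1 was marked in no library. Of the 7 of them that entered the fit, 3 were narrower with corn, where 42.4% of all genes tested were. The median difference of the 7 was -1.41 beside -1.24 for all genes tested. Kdr, Cdh5, Stab1 and Stab2 had no island in any corn-fed mouse and passed the filter through the other diets alone. Of 12 Kupffer cell and macrophage genes, 0 to 1 were marked per library with corn and 0 to 8 in the other libraries, with 0 to 2 in those other than HF_1. The part of these cells in the differences with corn was not tested.

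For Irf2bp1, Irf5, Stat5a and Gbp5 a lower width was given by the filter, so that their p-values give no support for its direction. Irf2bp1 fell by 2.94 (SE 0.52, adjusted p = 0.00234), from 1911 ± 1546 bp in the 9 other mice to 0 bp in the 6 corn-fed mice. Irf5 fell by 2.42 (SE 0.70, adjusted p = 0.0176), from 1667 ± 1600 bp to 0. Irf7 fell by 1.91 (SE 0.56, adjusted p = 0.0189), from 978 ± 682 bp to 66.7 ± 163 bp. These 3 genes had no island in any YD mouse, and RD_3 held the only island with corn, 400 bp at Irf7. Gbp7 fell by 2.05 (SE 0.53, adjusted p = 0.0116), from 1933 ± 566 bp to 533 ± 602 bp. Gbp5 fell by 1.79 (SE 0.69, adjusted p = 0.0486), from 933 ± 906 bp to 0, and with 1 library left out the call held only without SD_2, SD_3, CR_3 or HF_2. Stat5a fell by 1.96 (SE 0.62, adjusted p = 0.0245), from 978 ± 891 bp to 0, and was not called without YD_3. Ddx58 fell by 1.17 (SE 0.42, adjusted p = 0.0390), from 2022 ± 863 bp to 933 ± 561 bp, and with 1 library left out the call held only without CR_1, HF_2, RD_2, YD_1 or YD_2. Stat6 fell by 0.81 (SE 0.24, adjusted p = 0.0204), from 2800 ± 566 bp to 1633 ± 794 bp, and was the one of the 8 that was marked in all 15 libraries.

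**Figure D5:**
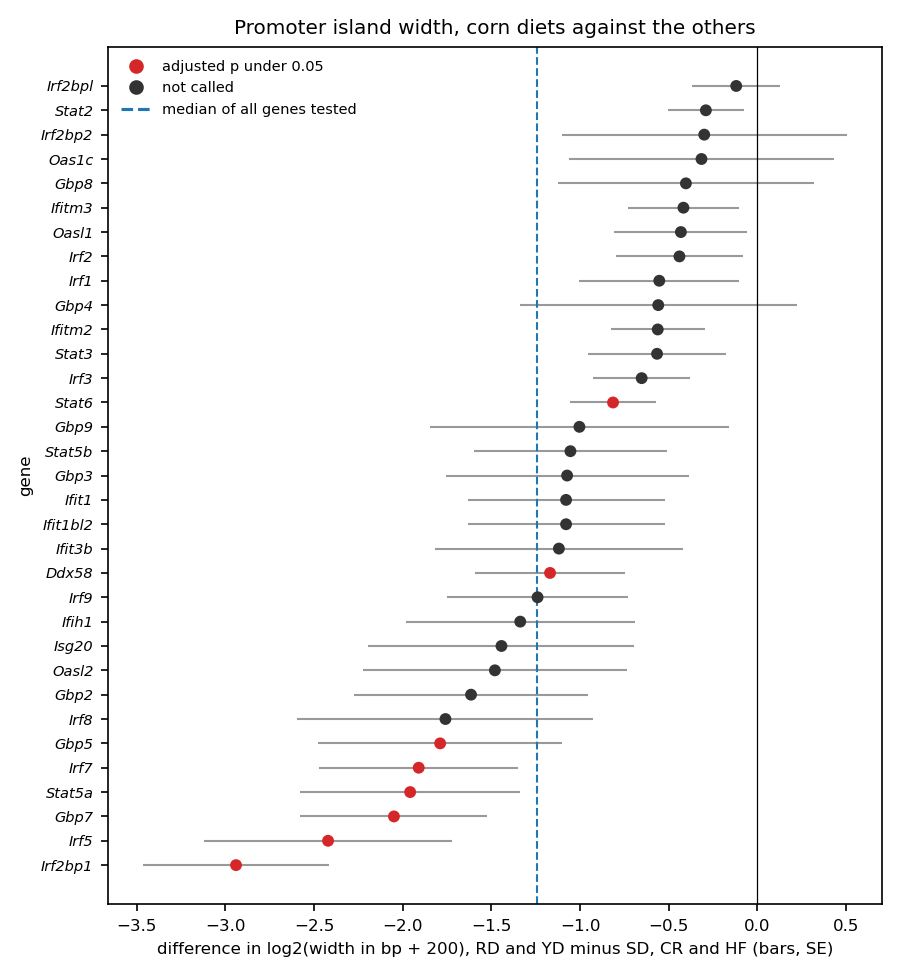
Difference in log2(width in bp + 200) between the corn diets and the other diets for 33 of the 35 genes tested, with bars of 1 SE, red points for an adjusted limma p under 0.05, and a dashed line at the median of all genes tested (-1.24). All points lie below 0, from -2.94 at Irf2bp1 to -0.12 at Irf2bpl. Genes with no island in any corn-fed mouse, such as Irf2bp1, passed the filter through the other diets alone.

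The smallest differences with corn were those of Irf2bpl at -0.12 (SE 0.25), Stat2 at -0.29 (SE 0.22), Irf2bp2 at -0.30 (SE 0.80), Oas1c at -0.32 (SE 0.75) and Gbp8 at -0.40 (SE 0.72). The first pair were marked in 15 libraries and had the small errors, whereas Irf2bp2 was marked in 13 and Oas1c and Gbp8 in 7 each. Ifitm3, Oasl1, Irf2 and Irf1 followed at -0.42, -0.43, -0.44 and -0.55. Over these 9 genes the limma adjusted p was 0.237 to 0.736, and the differences lay 0.69 to 1.12 above the median of all genes tested. With YD_3 left out, the corn comparison called 5 of the 35 genes (Irf2bp1, Irf5, Irf7, Gbp7 and Stat6), beside 28.4% of all genes tested. With both HF_1 and YD_3 left out, an alternative added after the data were seen, it called Irf2bp1 alone of 31 genes, beside 12.7% of all.

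Presence alone gave no call. In Fisher's exact test, two-sided, of the 6 corn-fed against the 9 other libraries, 0 of the 33 genes marked in 1 to 14 libraries passed an adjusted p of 0.05, and 50 of the 10985 protein-coding genes tested did (0.455%), all of them marked less often with corn. At an unadjusted p under 0.05 there were 8 of the 33, all less often marked with corn, beside 27.0% of all genes tested. Irf2bp1, marked in 0 of 6 and 8 of 9 libraries, came nearest with an exact p of 0.00140 and an adjusted p of 0.0541, and the adjusted p of the other 7, among them Irf5, Stat5a, Irf7, Gbp2, Gbp5 and Gbp7, was 0.163.

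Genes with islands in 3 of 3 mice on one diet and 0 of 3 on another were also counted, and no test was made, since 3 against 3 libraries allow no exact two-sided p under 0.1. Of the 42 genes marked in at least 1 library, 8 were marked in all HF and no YD mice (where 22.1% of 13044 protein-coding genes were): Irf5, Irf7, Irf8, Irf9, Irf2bp1, Stat5a, Gbp8 and Oasl2. In HF against RD there were 4 (9.52% and 11.5%), among them Irf5, Irf2bp1 and Stat5a. In CR against YD there were 2, Irf9 and Irf2bp1 (4.76% and 9.31%), and in CR against RD Irf2bp1 alone (2.38% and 3.35%). Irf9 was the only gene marked in all RD and no YD mice (2.38% and 1.82%). No gene of the set was so separated in HF against SD (3.04% of all), HF against CR (1.57%), SD against YD (5.83%) or SD against RD (1.76%).

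The rest of the pathway was read in the same limma fit. Of 8 receptor and kinase genes tested, 3 (Ifngr2, Jak1 and Il10rb) were narrower with corn, and Ifngr2 had 3 marked SD and 0 marked YD libraries and fell by 3.66 (SE 0.78) in YD against SD (limma adjusted p = 0.0171, and 0.0633 without SD_1 and 0.0568 without SD_2). Of 13 sensors and adaptors, 8 were narrower with corn (among them Tlr3, Tlr4, Ticam1, Traf3, Trim25, Ikbke and Dhx58), with Tlr3, the receptor of double-stranded RNA, at -2.69 (SE 0.49, limma adjusted p = 0.00238). Tlr3, Ticam1, Traf3 and Dhx58 had no island in any corn-fed mouse. They passed the filter of 3 libraries through the other diets alone, so that their lower width with corn was given by the filter. Dhx58 rose by 3.19 (SE 0.72) in HF against SD (limma adjusted p = 0.0250), the only gene of these lists called in that comparison, and was not called without HF_1, HF_3, SD_1 or SD_3 (limma adjusted p of 0.0550 to 0.179). With no island in SD, Dhx58 passed the filter through its 3 HF libraries, so that the direction of this difference was given by the filter. The adaptor genes Mavs and Myd88 were marked in all 15 libraries.

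Of 10 feedback inhibitors, 5 were narrower with corn (Pias4, Ptpn2, Usp18, Socs1 and Socs3). Usp18, which blocks IFNAR2, fell by 2.10 (SE 0.63, limma adjusted p = 0.0208), and Socs3 by 1.46 (SE 0.49, limma adjusted p = 0.0292). Socs3 was not called without HF_1, HF_3, SD_1 or YD_3 (limma adjusted p of 0.0511 to 0.0566). Of 27 other interferon-stimulated genes tested, 8 were narrower with corn (Psmb8, Nlrc5, Ifi35, Adar, Herc6, Cmpk2, Lgals3bp and Bst2). Ifi35 and Cmpk2 had no island in any corn-fed mouse, so that their lower width with corn was given by the filter. Psmb8, a subunit of the immunoproteasome, was marked in all 3 mice of SD, CR, HF and RD and in no YD mouse, and differed by 2.77 (SE 0.51) in RD against YD (limma adjusted p = 0.0115). In that list B2m, Rtp4, Irgm1, Irgm2, Dtx3l and Parp9 were marked in all 15 libraries, and the chemokine genes Cxcl9 and Cxcl10 in none. The shares called in these lists, as in the 59 genes, stand beside the 42.4% of all genes tested that were narrower with corn.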

How the data were processed

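H3K4me3 islands of 15 mouse livers, 1 library per mouse, were taken from the SICER2 lists that the authors deposited, 1 per library, without pooling. Per the study's methods, reads of 50 bp were aligned to mm10 with bwa, filtered with samtools to drop duplicates, reads with no usable mapping quality and those off chromosomes 1 to 19 and X, and islands were called with windows of 200 bp, gaps of up to 400 bp and an FDR threshold of 0.05. The fourth column is the score the authors deposited, which is not scaled between libraries, so scores served only to rank islands within a list. The depth was recovered from the steps of the score, with an effective genome fraction of 0.74. Read counts per island were not used here, so errors are those between mice and cover no counting error.

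TSSs came from GENCODE M21. The promoter island of a gene was the highest-scoring one within 1 kb of any TSS. A wide or merged island can serve several genes, and a difference in height without a difference in extent is not seen. Widths were compared with limma 3.58.1 in R 4.3.3 (moderated test with trend, 1 fit of 5 diet means, genes marked in at least 3 libraries, pseudocount of 200 bp, threshold 0.05), and presence with Fisher's exact test in scipy 1.17.1. Sequences were read from RefSeq windows with Python 3.11.15, pandas 2.3.3 and numpy 2.4.6, and drawn with matplotlib 3.10.9. The fits were tested on simulated data. For limma these were normally distributed log2 widths without absent islands, so that genes unmarked in whole diets were not covered.

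The genes, the lists and the comparisons were chosen with earlier results of these data known. Genes named with single values were those called by limma, those with islands in 3 of 3 mice on one diet and 0 of 3 on another, the 5 widest, and fixed representatives of each role. The others named were chosen after their values were seen. Single values of some genes are not reported here. Alternatives were the distance to the TSS (3 kb, or TSS inside), the same number of islands (7825) from every list, islands above the median score, islands of at least 600 bp, score rank, a pseudocount of 1000 bp, genes marked in at least 1 library, the replicate block, the form of the library name (5 libraries with PATChIP, 10 with ChIP) and the omission of each library.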

Additional observations from a re-analysis of the deposited data

How the results depend on the processing

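Of the 35 genes, none was called in CR against SD or RD against SD under any alternative. In HF against SD, where none was called, 1 of 24 was called with islands above the median score (Irf9, beside 0.499% of all genes). With the same number of islands from every list 1 of 22 was called (Irf7, 0.215% of all), and with the score rank 1 of 35 (0.0625% of all). The last was Oasl1, lower by 16.7 percentile points (limma adjusted p = 0.0138). With 1 library left out 0 to 2 were called, Ifit1 and Ifit1bl2 without HF_2 (2.69% of all), which had no island in SD. In YD against SD, 0 to 2 were called with 1 library left out. Among them were Irf9 without SD_2 (2.16% of all genes), Irf2bp1 without SD_3 (8.10%), Gbp7 without YD_2 (6.94%) and Stat6 without YD_1 (12.2%). In RD against YD, Irf9 was the 1 gene called with islands above the median score (1.13% of all genes). With 1 library left out 0 to 1 were called, Irf9 without SD_2 (1.05% of all) or SD_3 (1.46%). In the corn comparison, where 8 of 35 were called beside 42.4% of all genes, there were 5 of 24 with islands above the median score (32.8% of all), 5 of 30 with a TSS inside the island (32.4%), 2 of 35 with the score rank (3.08%), 1 of 22 with the same number of islands (15.8%) and 1 of 31 without HF_1 and YD_3 (12.7%). With 1 library left out there were 5 to 12, beside 28.4% to 52.3% of all genes. The 2 by rank were Irf2bp1 and Oasl1, which was higher with corn by 8.67 points (limma adjusted p = 0.00884) while its width differed by -0.43. Irf2bp1 was called with 25 of 26 alternatives. These reuse the same libraries, and Irf2bp1 entered the fits through the other diets alone, so that they give no separate support for its direction. None of the 8 called differences changed sign, though Irf2bp1, Irf5, Stat5a and Gbp5 had no island in any corn-fed mouse. Of the 9 smallest differences, none of them called by width, 8 did change sign. By rank Irf2bpl, Oas1c, Gbp8 and Ifitm3 were higher with corn by 2.61, 5.00, 4.71 and 1.54 points (limma adjusted p of 0.242 to 0.879). Without HF_1 and YD_3 the log2 difference was 0.031 for Irf2bpl, 0.48 for Irf2bp2, 0.066 for Oas1c and 0.023 for Irf2, and with a TSS inside the island 0.16 for Oas1c. With 1 library left out it ran from -0.84 to 0.46 for Irf2bp2 (above 0 without SD_1 or YD_3), -0.95 to 0.0015 for Oas1c (YD_1 or YD_3), -0.84 to 0.16 for Gbp8 (RD_1 or SD_1) and -0.84 to 0.023 for Irf1 (YD_3). Presence gave 0 calls, and 0 to 1 with 1 library left out (without SD_3, where 1.36% of all genes were called). The 9 genes marked in every library became 4 with a TSS inside the island and 9 to 13 with 1 library left out, and the 17 marked in none 17 to 21. Fewer of the 35 genes entered the fit where fewer than 35 are given, and the causes of the other shifts were not tested.

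Over all 11200 genes the counts moved as well: from 4752 to 345 by rank and 5857 without YD_1 in the corn comparison, from 669 to 0 by rank and 1367 without YD_1 in YD against SD, and from 318 to 0 without HF_1 in HF against SD. In RD against YD 113 became 0 by rank and 370 without YD_1, in RD against SD 27 became 0 with the replicate block and 150 without CR_1, and in CR against SD 15 became 0 with the replicate block and 102 without CR_1. With the form of the library name as a covariate, 8 of the 35 genes were called with corn (43.1% of all genes), Ifih1 in place of Gbp5.

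Whether the replicate numbers of the labels pair the mice is not known. Deviations of same-numbered mice from their diet mean correlated between -0.104 and 0.0897 over 30 pairs. Those of differently numbered mice correlated between -0.0963 and 0.114 over 60 pairs. Although such pairs were the more numerous, 8 of 15 libraries correlated best with a library of their own number. Centring within each diet ties these correlations to one another, so that they cannot decide the question. The replicate block gave 9 calls of 35 genes in the corn comparison, with Gbp2 added to the 8, beside 40.4% of all genes. Gbp2 had no island in any corn-fed mouse, so that its lower width with corn was given by the filter. It gave 0 calls in each of the other 5 limma comparisons it was run for, and 0 for presence. A missing island says only that none was called, not that the mark was absent.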
